A study of Mus musculus with 63 samples.

Results

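Zinc finger genes Zfp800 to Zfp999 were taken as the protein-coding genes of the count table whose GENCODE M21 symbol lies between Zfp800 and Zfp999 and whose mean was at least 0.5 CPM (counts relative to the library total, scaled between libraries with TMM factors). This gave 70 members of 90 such genes at any level, in a table of 55401 genes. RNA was measured in the dorsal hippocampus of adolescent mice of 2 inbred strains, C57BL/6J, the strain of the mouse reference genome, and DBA/2J. Male and female mice of both strains were given an acute injection of ethanol (1.5 g/kg) or of saline and were fear conditioned (FC) or not (noFC). There were 16 groups of 4 libraries, but only 3 for C57BL/6J males with FC and saline, which left 31 libraries of C57BL/6J and 32 of DBA/2J. The labels do not say whether each library is a separate animal, so p-values measure the spread between libraries.

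Most members code for proteins made of a KRAB domain followed by a row of zinc fingers. A zinc finger is a short loop in which a pair of cysteines and a pair of histidines hold a zinc ion, and a row of them reads a stretch of DNA. The KRAB domain recruits Trim28, which brings the histone methyltransferase Setdb1 and heterochromatin proteins, so that the bound DNA is silenced. Many of these proteins bind remnants of retroviruses and other transposable elements, and their genes lie in clusters that grew by repeated duplication. In adult tissues such as the brain they are usually transcribed at low to moderate levels.

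The repeated unit of these genes is shown by the coding bases of the second finger of the pattern cysteine, 2 residues, cysteine, 12 residues, histidine, 3 residues, histidine in 6 members that the results turn on. Capitals mark the codons of the 2 cysteines and 2 histidines, on the coding strand of GRCm38. The coordinates are chr11:59463989-59464051 on the minus strand for Zfp867, chr2:177475115-177475177 on the plus strand for Zfp970, chr2:178033090-178033152 on the plus strand for Zfp971, chr4:147755529-147755591 on the minus strand for Zfp984, chr9:88569354-88569416 on the plus strand for Zfp949 and chr17:21661800-21661862 on the plus strand for Zfp983.
Zfp867: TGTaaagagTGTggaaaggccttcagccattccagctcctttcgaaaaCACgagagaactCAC
Zfp970: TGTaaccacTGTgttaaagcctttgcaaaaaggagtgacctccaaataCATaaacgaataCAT
Zfp971: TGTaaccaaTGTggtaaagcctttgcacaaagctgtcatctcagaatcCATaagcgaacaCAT
Zfp984: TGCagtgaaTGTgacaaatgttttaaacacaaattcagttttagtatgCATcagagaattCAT
Zfp949: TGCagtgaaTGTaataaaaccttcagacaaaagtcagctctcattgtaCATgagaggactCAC
Zfp983: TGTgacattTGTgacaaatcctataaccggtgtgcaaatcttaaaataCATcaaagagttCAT
All 6 stretches are 63 bases long and lie within 1 coding exon. A search of the coding sequences for the finger pattern with looser spacing found from 0 to 22 fingers per member, with a median of 11.0. Zfp808, with 22, had the highest number. A KRAB-like amino acid pattern was found in 61 of the 70 members. The other 9 included Zfp827, Zfp830, Zfp865 and Zfp800.

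The members lay on 13 chromosomes. A cluster was taken as a run of members in which each starts within 1.0 Mb of the end of the one before. By this rule 37 members fell into 7 clusters of 3 or more, 8 formed 4 pairs, and 25 stood alone. The largest cluster held 11 members on chromosome 17 (GRCm38, 21567008 to 22867134). The chromosome 4 cluster (146449023 to 147848366) and the chromosome 8 cluster (69209038 to 69791178) held 6 members each. Those of chromosome 2 (176670522 to 178078476) and of chromosome 17 near 33 Mb (32765496 to 33005457) held 4 each. Chromosome 7 (42579783 to 42692742) and chromosome 13 (62129886 to 62571199) held 3 each. Every member of these 7 clusters carried the KRAB-like pattern.

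Because duplicated genes share sequence, reads of 75 bases cannot always be assigned to one of them. Of the 70 members, 17 had no 75-base window of their M21 transcripts in common with a transcript of another gene, and 50 had at least 90% of their windows to themselves. Zfp935 had none to itself, since 99.2% of its windows also occur in Gm49359, and its level is uncertain for that reason. Zfp960 kept 24.7% of its windows, Zfp991 24.1% and Zfp973 24.0%. Zfp984 kept 59.1% and Zfp970 69.7%, whereas Zfp949 and Zfp867 shared none.

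The members were transcribed at low to moderate levels that added up alike in the 2 strains. Summed over the 70 members, a library held 1111 ± 48.4 CPM (SD, n = 31) in C57BL/6J and 1116 ± 50.3 CPM (SD, n = 32) in DBA/2J. The ranges over libraries, 1036 to 1254 and 1023 to 1238, overlapped almost entirely. Mean levels of single members ran from 0.574 to 173.3 CPM with a median of 10.42. Per kilobase of the length given in the count table, so that genes can be compared, levels ran from 0.221 to 15.59 CPM per kb with a median of 2.71. Zfp871 was the highest at 15.6 CPM per kb, followed by Zfp938 at 11.2 and Zfp949 at 9.70. The lowest members by mean CPM were Zfp982 at 0.574 and Zfp973 at 0.620, just inside the level limit. Just outside it stood Zfp819, a KRAB zinc finger gene of pluripotent cells, at 0.306, and Zfp981 at 0.116.

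Library totals ran from 21027659 to 61631742 counts with a median of 26379948. The tissue label was checked against marker lists, and all 10 of the hippocampal neuron markers found in the table were above 0.5 CPM. Their summed level ran from 5788 to 8989 CPM in C57BL/6J and from 5811 to 8809 CPM in DBA/2J. Choroid plexus markers, which mark a neighbouring tissue, varied far more, from 45.2 to 12471 CPM in C57BL/6J and from 34.8 to 11120 CPM in DBA/2J. Oligodendrocyte markers had a median of 12927 CPM in C57BL/6J and 9833 CPM in DBA/2J, and blood markers one of 82.5 and 174.9 CPM. A choroid plexus covariate in the strain comparison below gave 15 members called higher and 23 lower in DBA/2J, beside 14 and 23 without it. The part of oligodendrocyte and blood markers in the strain differences was not tested. In whole tissue, fewer cells of a type and less RNA per cell cannot be told apart.

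The first comparison asked which members differ between the strains whatever the treatment. Of the 70 members, 37 (52.9%) were called at an adjusted p under 0.05 by edgeR's quasi-likelihood test with Benjamini-Hochberg adjustment, beside 50.0% of the 19974 genes tested. DBA/2J was higher for 14 members and lower for 23, where 25.5% of all genes tested were called higher and 24.5% lower. The share of members called was thus close to that of all genes. The median log2 difference (DBA/2J minus C57BL/6J) was -0.03 over the members and 0.005 over all genes tested. The median size regardless of sign was 0.11 in both sets. It was 0.089 over the 14607 protein-coding genes at 0.5 CPM or more and 0.081 over the 261 Zfp genes with lower numbers. The differences between these medians were not tested. More than 2-fold differences were called in 6 members, where 5.19% of all genes tested had one. The share was 2.1% of those protein-coding genes and 0.766% of those other Zfp genes. Of the 6 members, Zfp970, Zfp982 and Zfp984 had a mean below 0.5 CPM in DBA/2J and reached the level limit only through C57BL/6J. They had to differ, so the count is not read against these shares. The 67 members at 0.5 CPM or more in each strain held 14 called higher and 20 called lower.

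**Figure D1:**
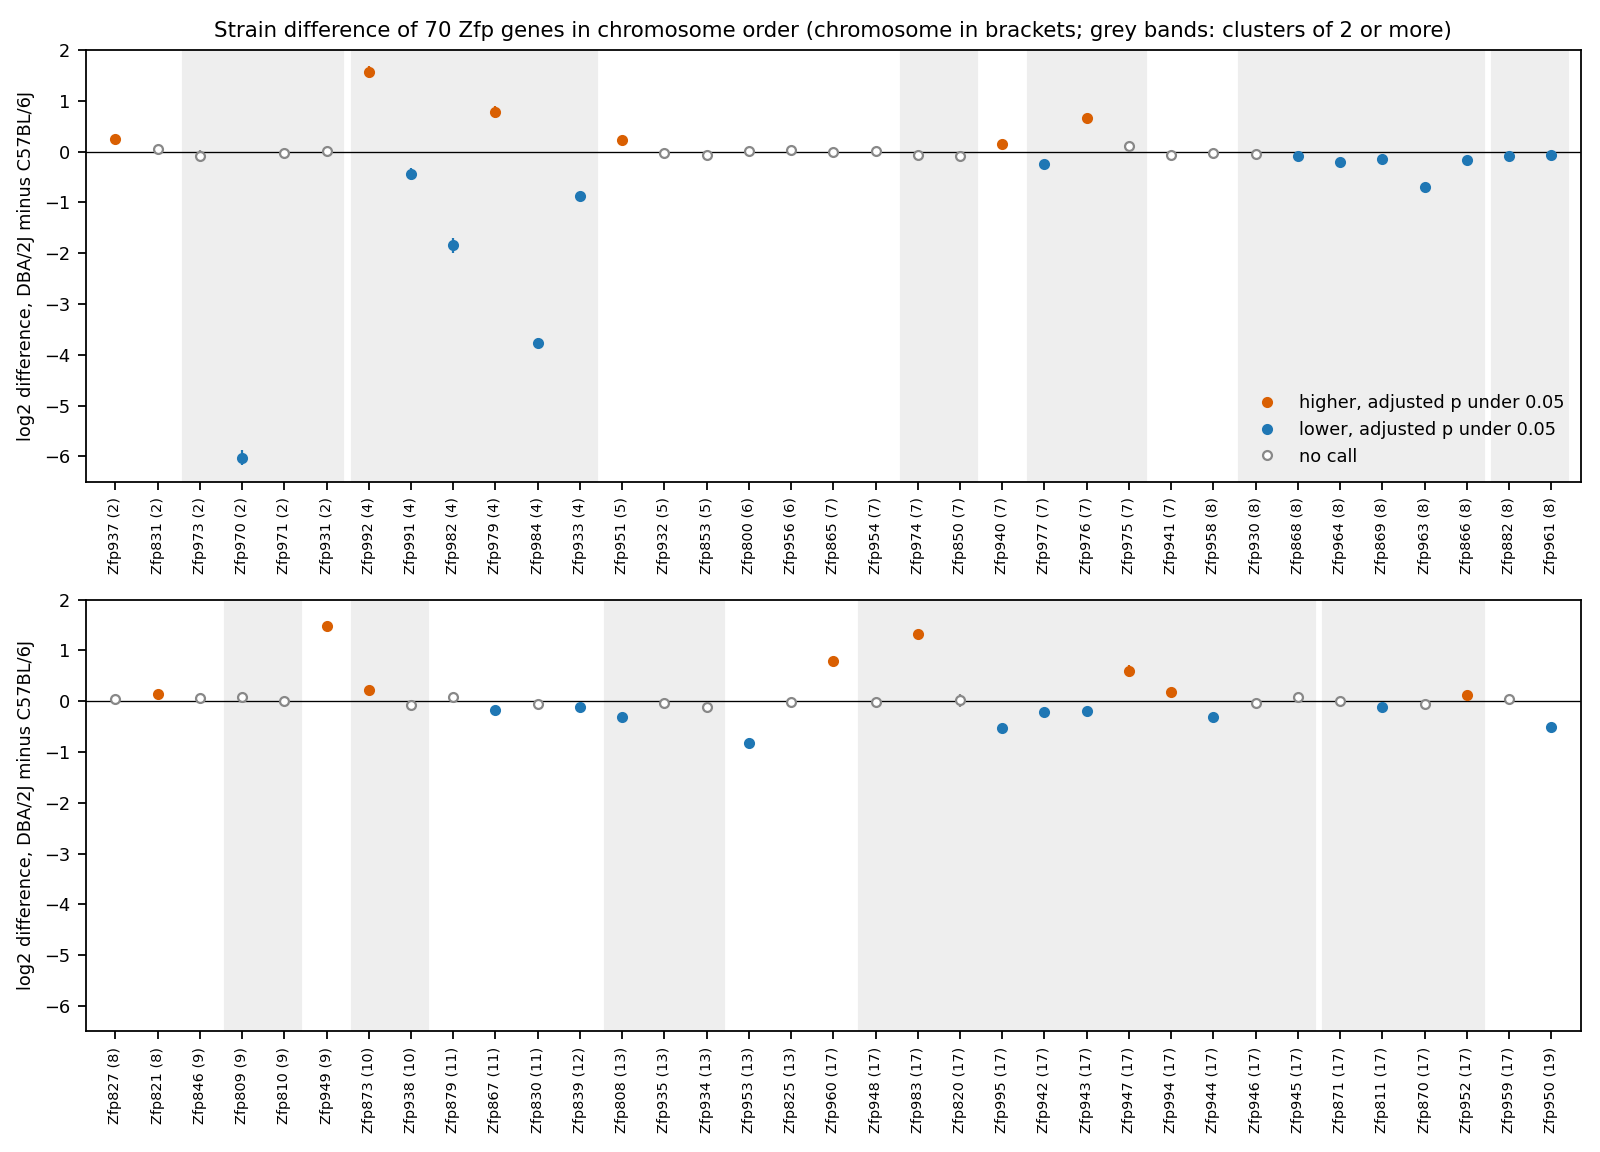
Log2 difference (DBA/2J minus C57BL/6J) of each of the 70 members in chromosome order, with the standard error of the fit; names carry the chromosome in brackets and grey bands are clusters of 2 or more. All 6 members of the chromosome 4 cluster were called (4 lower and 2 higher in DBA/2J), though Zfp982 and Zfp984 reached the level limit only through C57BL/6J. On chromosome 8, 5 of 6 were lower by less than 0.7.

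In 5 members no library of one strain reached the range of the other, where 4.02% of all genes tested had such a split. Zfp970 and Zfp984, which reached the level limit only through C57BL/6J, are among the 5, so the count is a description. Zfp949 (ENSMUSG00000032425, chromosome 9, 88548020 to 88571061, plus strand) ran from 18.9 to 23.6 CPM with a median of 20.7 in C57BL/6J and from 49.4 to 66.6 CPM with a median of 58.7 in DBA/2J. Every DBA/2J library thus lay above every C57BL/6J library, at 2.79 times the level (log2 difference 1.48, SE 0.03, adjusted p = 4.1e-45 by edgeR). The difference was between 1.46 and 1.52 in the 4 combinations of drug and conditioning.

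Zfp983 (ENSMUSG00000035868, chromosome 17, 21650624 to 21664966, plus strand) ran from 9.93 to 16.1 CPM (median 12.3) in C57BL/6J and from 25.2 to 37.2 CPM (median 31.0) in DBA/2J. It was 2.52 times as high in DBA/2J (log2 difference 1.33, SE 0.04, adjusted p = 1.3e-34 by edgeR). Zfp933 (ENSMUSG00000059423, chromosome 4, 147822986 to 147848366, minus strand) moved the other way, from 19.7 to 26.7 CPM (median 23.6) in C57BL/6J and from 9.93 to 15.3 CPM (median 12.7) in DBA/2J. Its log2 difference was -0.87 (SE 0.04, adjusted p = 1.5e-28 by edgeR).

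Zfp970 (ENSMUSG00000078866, chromosome 2, 177464733 to 177478129, plus strand) was almost unread in DBA/2J. It ran from 5.28 to 10.3 CPM (median 6.91) in C57BL/6J and from 0.0 to 0.263 CPM (median 0.115) in DBA/2J. The 31 C57BL/6J libraries held 6170 counts in all and the 32 DBA/2J libraries 93, with 8 of the latter at 0. The log2 difference was -6.03 (SE 0.15, adjusted p = 1.3e-38 by edgeR). Zfp984 (ENSMUSG00000078495, chromosome 4, 147753974 to 147809788, minus strand) ran from 2.27 to 4.37 CPM (median 3.41) in C57BL/6J and from 0.0961 to 0.567 CPM (median 0.241) in DBA/2J. Its libraries held 2957 and 227 counts in all, and its log2 difference was -3.76 (SE 0.10, adjusted p = 2.0e-37 by edgeR). Both Zfp970 and Zfp984 reached the level limit only through C57BL/6J and had to differ, so their p-values are given as a description.

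**Figure D2:**
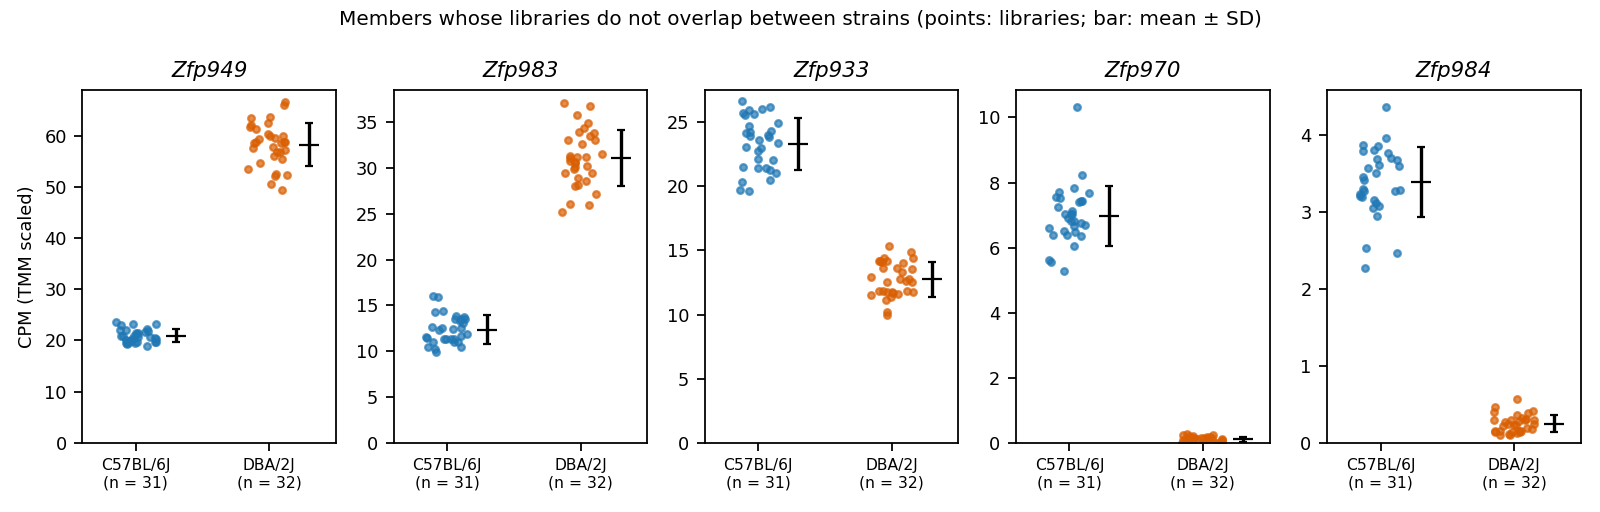
CPM of the 5 members whose libraries did not overlap between strains, 1 point per library with the mean and SD beside it (31 C57BL/6J and 32 DBA/2J libraries, each panel on its own axis from 0). Zfp949 and Zfp983 were higher in every DBA/2J library, Zfp933, Zfp970 and Zfp984 lower, and the DBA/2J libraries of Zfp970 lay at or below 0.263 CPM.

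The other named strain differences were smaller or rested on low counts. Zfp992 stood at 0.520 ± 0.223 CPM (SD, n = 31) in C57BL/6J and 1.56 ± 0.311 (SD, n = 32) in DBA/2J, a log2 difference of 1.58 with overlapping libraries. Zfp982 went the other way, at 0.904 ± 0.269 and 0.255 ± 0.177 CPM (log2 difference -1.85). Zfp960 stood at 1.07 ± 0.243 and 1.85 ± 0.306 CPM, Zfp979 at 1.19 ± 0.502 and 2.03 ± 0.489, and Zfp976 at 5.26 ± 0.791 and 8.41 ± 1.26, with log2 differences of 0.79, 0.77 and 0.67. Zfp963 stood at 6.39 ± 0.675 CPM in C57BL/6J and 3.97 ± 0.466 in DBA/2J (log2 difference -0.69). Zfp950, at 64.6 ± 5.94 and 45.7 ± 4.99 CPM, was 1.42 times as high in C57BL/6J (log2 difference -0.50). These 7 members were called with adjusted p between 1.8e-20 and 1.2e-07 by edgeR. Among them Zfp982 reached the level limit only through C57BL/6J and had to differ, so its call is a description.

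The genes are read by alignment to a reference made from C57BL/6J, and the deposited transcript table gave a second counting of the same libraries. Of 68 members that could be fitted in both, 58 had the same sign and 30 were called in the same direction in both. For Zfp970 the log2 difference fell in size to -1.97 (SE 0.05, adjusted p = 1.4e-35 by edgeR) in the summed transcript counts. Its transcript ENSMUST00000099002.9 held a mean of 261.1 estimated counts per C57BL/6J library and 103.0 per DBA/2J library, while ENSMUST00000108952.3 held 256.6 and 26.1. The DBA/2J level of Zfp970 therefore depends on the counting, and only its direction was shared. In the gene counts that direction was set by the level limit, which Zfp970 reached only through C57BL/6J. Zfp984 gave -2.99, Zfp992 0.91 and Zfp991, which was called lower in the gene counts (-0.44), gave 0.16 with no call.

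Zfp951 and Zfp947, named after their values were seen, were called in opposite directions by the 2 countings. The log2 differences were 0.22 and -0.58 for Zfp951 and 0.60 and -0.26 for Zfp947, gene counts first. Zfp949 gave 1.48 in both countings and Zfp983 1.33 and 1.26.

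**Figure D3:**
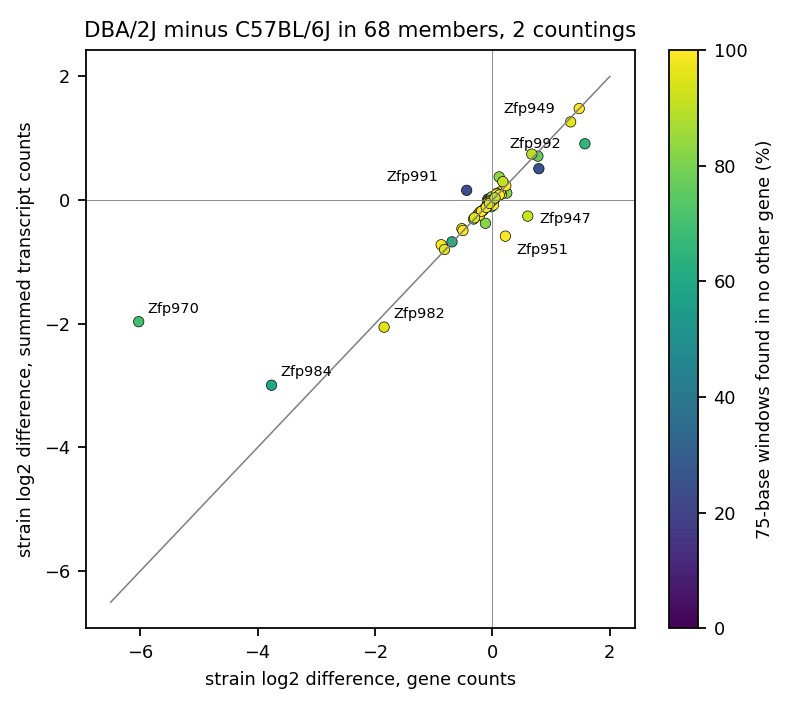
Strain log2 difference (DBA/2J minus C57BL/6J) of 68 members from the gene counts and from the summed transcript counts, coloured by the share of 75-base windows that occur in no other gene; the line marks equal values. Zfp970 lies at -6.03 against -1.97, and Zfp951 and Zfp947 lie on opposite sides of 0 in the 2 countings.

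Beyond its level, Zfp949 differed between strains in the transcripts that carried its counts. Both main transcripts have a coding length of 1809 bases and the same end, but ENSMUST00000162827.7 starts at 88548020 and has 6 exons, and ENSMUST00000161458.2 starts at 88548183 and has 5. In C57BL/6J the first held 45.0 to 97.7% of the gene's estimated counts (median 75.6%), and in DBA/2J 18.6 to 35.4% (median 29.6%). The second held 0.0 to 49.2% (median 21.3%) in C57BL/6J and 62.8 to 80.4% (median 69.1%) in DBA/2J. The strains did not overlap for either share. Scaled to CPM of estimated counts, the first transcript stood at 16.5 ± 3.01 in C57BL/6J and 18.1 ± 2.50 in DBA/2J, and the second at 4.34 ± 2.96 and 42.9 ± 4.44 (SD, n = 31 and 32). The estimates come from short reads on transcripts that share most of their bases, and the shares were not tested.

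**Figure D4:**
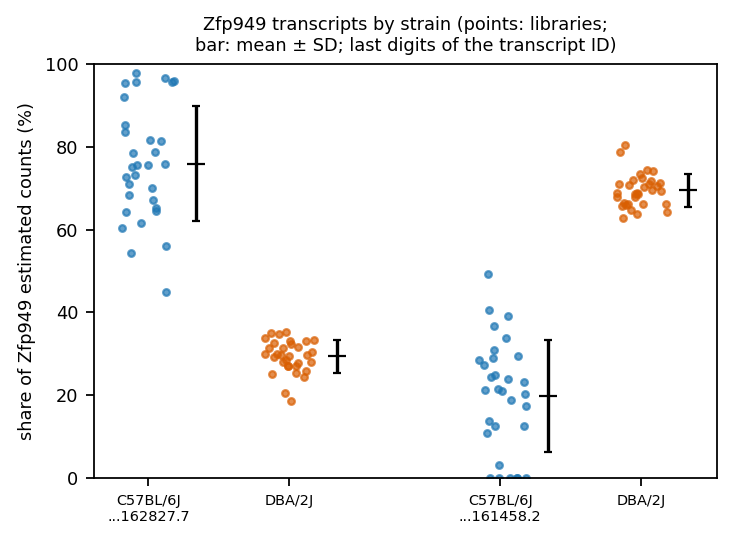
Share of the Zfp949 estimated counts on each of its 2 main transcripts, 1 point per library with the mean and SD. In every DBA/2J library the later-starting transcript held at least 62.8%, and in every C57BL/6J library at most 49.2%.

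The chromosome 2 cluster held one strain difference among 4 members. Zfp970, which reached the level limit only through C57BL/6J, was called, and Zfp973, Zfp971 and Zfp931 were not. Zfp971 stood at 7.04 ± 1.06 CPM in C57BL/6J and 6.94 ± 0.875 in DBA/2J (log2 difference -0.02, SE 0.05), and Zfp931 at 11.4 ± 1.52 and 11.5 ± 1.59 (0.01, SE 0.05). Zfp971 and Zfp970 have nearly the same sequence before their start in the reference, with 226 of 232 aligned bases identical (97.4%) and no gap. Both stretches are shown because one gene differed between strains and the other did not; they lie outside exons on the plus strand of GRCm38.p6 (RefSeq starts), at chr2:177464501-177464732 for Zfp970 and chr2:178023034-178023265 for Zfp971. Capitals mark the 6 positions that differ between the genes.
Zfp970: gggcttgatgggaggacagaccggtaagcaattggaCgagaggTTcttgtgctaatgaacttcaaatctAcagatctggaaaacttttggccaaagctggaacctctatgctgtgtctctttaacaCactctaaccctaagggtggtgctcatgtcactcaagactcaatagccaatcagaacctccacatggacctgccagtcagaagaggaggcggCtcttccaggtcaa
Zfp971: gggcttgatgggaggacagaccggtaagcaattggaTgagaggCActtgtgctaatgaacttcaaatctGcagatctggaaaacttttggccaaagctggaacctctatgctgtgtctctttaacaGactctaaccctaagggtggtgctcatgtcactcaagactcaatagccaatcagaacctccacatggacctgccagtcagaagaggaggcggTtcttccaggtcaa
Both are reference sequences of C57BL/6J; the DBA/2J sequence was not analysed here.

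In the chromosome 4 cluster all 6 members were called in the gene counts. Zfp992 and Zfp979 were higher in DBA/2J and Zfp991, Zfp982, Zfp984 and Zfp933 lower. Zfp982 and Zfp984 reached the level limit only through C57BL/6J and had to differ, so the count is a description. In the transcript sums Zfp991 had no call (log2 difference 0.16). The median size of the difference, with Zfp982 and Zfp984 included, was 1.22 on the log2 scale. It was the largest of the 7 clusters, where the others had medians from 0.05 to 0.25. Zfp933 had the highest level of the cluster at 4.21 CPM per kb and the other 5 stood at 0.230 to 0.615. This region of chromosome 4 is known for recently duplicated KRAB zinc finger genes. Windows of 250 bases before the RefSeq start were at hand for 62 of the 70 members, 4 of them in this cluster. The repeated letters CAAGCAAGC, searched on both strands, were found in 3 of these 4 (Zfp984, Zfp982 and Zfp979) and in no other member's window. They were also in those of Zfp981, Zfp985, Zfp987 and Zfp988 on chromosome 4, which lie below the level limit, and in 0.4% of the 32544 distinct promoter sequences of the table. These shares are a description, since the stretches shown are alike beyond the letters searched and are not separate matches.
Zfp984: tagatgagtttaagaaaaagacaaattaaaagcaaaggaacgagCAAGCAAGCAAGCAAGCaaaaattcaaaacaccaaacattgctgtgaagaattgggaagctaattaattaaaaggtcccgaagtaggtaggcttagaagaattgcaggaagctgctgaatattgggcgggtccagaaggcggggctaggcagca
Zfp982: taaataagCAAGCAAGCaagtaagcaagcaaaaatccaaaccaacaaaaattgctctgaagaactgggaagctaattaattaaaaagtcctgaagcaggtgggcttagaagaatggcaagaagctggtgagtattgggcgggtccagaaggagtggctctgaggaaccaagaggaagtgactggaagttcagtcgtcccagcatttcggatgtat
Zfp979: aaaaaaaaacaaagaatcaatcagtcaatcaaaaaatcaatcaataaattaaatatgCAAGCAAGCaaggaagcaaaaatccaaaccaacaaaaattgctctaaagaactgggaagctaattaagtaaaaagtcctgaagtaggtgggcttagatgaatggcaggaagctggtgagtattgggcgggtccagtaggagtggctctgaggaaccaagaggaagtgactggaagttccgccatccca
Capitals mark the letters searched; the stretches lie outside exons of GRCm38.p6 at chr4:147809841-147810038 on the minus strand for Zfp984, chr4:147492202-147492416 on the plus strand for Zfp982 and chr4:147642514-147642758 on the minus strand for Zfp979. Of the 3 genes with these letters, Zfp984 and Zfp982 were lower in DBA/2J, as the level limit required, and Zfp979 was higher. A link between the letters and the strain differences was not tested.

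In the chromosome 8 cluster 5 of 6 members were called, all in one direction. Zfp868, Zfp964, Zfp869, Zfp963 and Zfp866 were lower in DBA/2J, and Zfp930 stood at -0.05 (SE 0.04) with no call. Zfp963 differed most, and Zfp866, the highest of the cluster at 5.18 CPM per kb, stood at 30.6 ± 1.69 CPM in C57BL/6J and 27.5 ± 1.53 in DBA/2J (log2 difference -0.16, SE 0.02). The cluster of 3 on chromosome 7 split, with Zfp976 higher, Zfp977 lower and Zfp975 not called (log2 difference 0.11), though the transcript sums gave Zfp975 0.375 with an adjusted p of 1e-09 by edgeR. On chromosome 13 only Zfp808 was called (log2 difference -0.32, SE 0.08), and it stood at 1.40 ± 0.354 CPM in C57BL/6J and 1.11 ± 0.204 in DBA/2J. In the transcript sums Zfp934 was called too, at -0.375 (adjusted p = 9.6e-12 by edgeR) against -0.12 in the gene counts. The chromosome 17 cluster near 33 Mb held the most abundant member, Zfp871, at 173 ± 11.6 CPM in C57BL/6J and 173 ± 11.2 in DBA/2J (log2 difference 0.00, SE 0.02). Its largest difference was that of Zfp952, at 21.3 ± 1.35 and 23.1 ± 1.72 CPM (log2 difference 0.12, SE 0.03).

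In the largest cluster, on chromosome 17 near 22 Mb, 3 members were higher in DBA/2J (Zfp983, Zfp947 and Zfp994), 4 were lower (Zfp995, Zfp942, Zfp943 and Zfp944) and 4 were not called. In the transcript sums Zfp947 was called lower (-0.259, adjusted p = 0.017 by edgeR). Zfp945, not called in the gene counts, was called higher there (0.099, adjusted p = 0.023 by edgeR). Zfp948, the highest member of the cluster at 7.05 CPM per kb, stood at 18.8 ± 1.76 CPM in C57BL/6J and 18.6 ± 2.13 in DBA/2J. Zfp942 and Zfp943 point away from each other with 87 bases between their first bases (21962464 and 21962552), and were lower by similar amounts. Zfp942 stood at 30.6 ± 2.41 and 26.2 ± 2.77 CPM (log2 difference -0.22, SE 0.04) and Zfp943 at 30.6 ± 2.66 and 26.9 ± 2.82 (-0.18, SE 0.04). Zfp944 lies in the same way against Zfp758, a zinc finger gene with a lower number, with 52 bases between them. Zfp944 stood at 18.3 ± 1.73 and 14.8 ± 1.19 CPM (log2 difference -0.31, SE 0.03) and Zfp758 at 15.9 ± 1.71 and 7.61 ± 0.88 (-1.07, SE 0.04). All 52 bases between Zfp944 and Zfp758 recur in the stretch between Zfp942 and Zfp943.
Zfp942: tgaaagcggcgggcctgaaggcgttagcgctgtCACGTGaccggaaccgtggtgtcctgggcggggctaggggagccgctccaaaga
Zfp944: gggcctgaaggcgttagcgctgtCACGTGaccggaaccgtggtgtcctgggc
These stretches are the whole intervals between the paired genes, chr17:21962465-21962551 and chr17:22361401-22361452 of GRCm38.p6, written on the minus strand toward Zfp942 and Zfp944. Capitals mark the letters CACGTG, which read the same on both strands. They were found in the 250-base windows of 7 of the 11 members of the cluster, of 9 of the 62 members with a window (14.5%), and of 6.0% of all promoter sequences of the table. Zfp942 and Zfp943 share one occurrence, and a match describes the letters only.

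Counts of called members are given here by subset as a description, beside 50.0% of all genes tested. Of the 37 members in clusters of 3 or more, 24 (64.9%) were called and the median size of their log2 difference was 0.18, whereas 10 of the 25 members standing alone (40.0%) were called, with a median size of 0.06. Members with the KRAB-like pattern were called in 35 of 61 cases and those without it in 2 of 9. Members at 0.5 to 2 CPM were called in 10 of 12 cases, those at 2 to 10 CPM in 10 of 22 and those at 10 CPM or more in 17 of 36. Among members with at least 90% of their windows to themselves, 27 of 50 were called, and among the rest 10 of 20. Zfp970, Zfp982 and Zfp984 reached the level limit only through C57BL/6J and had to differ. All of them are among the 24 called in clusters and the 35 called with the KRAB-like pattern. Zfp982 and Zfp984 are also among the 10 called at 0.5 to 2 CPM, and Zfp970 among the 10 called at 2 to 10 CPM. Both window subsets hold some of them too. Counts that include them are not read against the share of all genes tested. None of the subsets was tested against another.

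Zfp809, Zfp932 and Zfp827, named for a known role in silencing, were not called in the first comparison. Zfp809, which binds the primer binding site of murine leukaemia virus and recruits Trim28, stood at 14.8 ± 1.47 CPM in C57BL/6J and 15.5 ± 1.31 in DBA/2J (log2 difference 0.07, SE 0.03, adjusted p = 0.075 by edgeR). It was called with the libraries of lower title numbers alone (log2 difference 0.134, adjusted p = 0.014 by edgeR) and in 6 of 63 fits that left out 1 library. Zfp932, a repressor of endogenous retroviruses, stood at 30.3 ± 2.64 and 29.8 ± 2.50 CPM (-0.02, SE 0.03), with 24.9% of its windows shared with its close relative Gm15446. Zfp827, which recruits the NuRD complex, stood at 44.7 ± 2.22 and 46.3 ± 3.43 CPM (0.05, SE 0.02, adjusted p = 0.055 by edgeR), close to the threshold. It was called with upper quartile scaling (adjusted p = 0.033 by edgeR), by DESeq2 and in 24 of 63 fits that left out 1 library. Zfp830, needed in the early embryo, stood at 9.42 ± 0.784 and 9.01 ± 0.700 CPM (-0.06, SE 0.03). Zfp865 at 38.1 ± 2.35 and 37.9 ± 2.18 CPM and Zfp800 at 15.6 ± 0.958 and 15.7 ± 1.03 CPM had log2 differences of -0.01 and 0.01 (SE 0.02 each). Zfp871, Zfp810 and Zfp931 had the differences nearest to 0, and Zfp810 stood at 21.3 ± 1.52 and 21.3 ± 2.15 CPM. Zfp938, at 24.4 ± 2.45 and 23.1 ± 2.11 CPM, missed the threshold (log2 difference -0.08, adjusted p = 0.057 by edgeR) but was called in the transcript sums (-0.09, adjusted p = 0.04 by edgeR) and in 18 of 63 fits that left out 1 library.

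Of 30 genes for the silencing machinery that KRAB proteins recruit, 16 (53.3%) were called between strains, beside 50.0% of all genes tested, 5 higher and 11 lower in DBA/2J, with a median size of 0.06. Hdac1, a histone deacetylase, differed most, at 28.9 ± 1.61 CPM in C57BL/6J and 20.3 ± 1.37 in DBA/2J (log2 difference -0.51, SE 0.02). Trim28, the scaffold itself, stood at 121 ± 7.65 and 135 ± 5.66 CPM (0.15, SE 0.02), and Setdb1 at 57.3 ± 2.97 and 59.4 ± 2.87 (0.05, SE 0.02). The 261 Zfp genes with lower numbers were called in 133 cases (51.0%), 66 higher and 67 lower.

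The second comparison asked what ethanol changed within each strain. One member, Zfp867, was called. It lies on chromosome 11 (ENSMUSG00000054519, 59461197 to 59472474, minus strand), with no other member within 1.0 Mb. It has the KRAB-like pattern and 10 fingers, and shares no window with another gene. Its function is not established. The 250 bases before its start in RefSeq, chr11:59472475-59472724 on the minus strand of GRCm38.p6, are shown because it was the member called. Capitals mark GGGCGG, the core letters of a GC box, which were found on either strand in 35.5% of the members' windows and 33.0% of all promoter sequences.
Zfp867: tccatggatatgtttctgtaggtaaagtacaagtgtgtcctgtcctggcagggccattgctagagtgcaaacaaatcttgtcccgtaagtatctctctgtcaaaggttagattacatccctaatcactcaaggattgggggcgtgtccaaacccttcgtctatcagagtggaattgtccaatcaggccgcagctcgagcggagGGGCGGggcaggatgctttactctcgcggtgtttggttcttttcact
The letters GTAAACA, a site of forkhead factors, were in none of the members' windows and in 3.2% of all promoter sequences, and TGACGTCA, a cyclic AMP response site, was in 1 member's window.

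In DBA/2J, Zfp867 ran from 2.40 to 4.87 CPM (median 3.29) in the 16 saline libraries and from 3.70 to 5.93 CPM (median 4.37) in the 16 ethanol libraries. In C57BL/6J it ran from 2.82 to 5.27 CPM (median 3.87) in the 15 saline libraries and from 4.18 to 6.41 CPM (median 5.09) in the 16 ethanol libraries. The drug groups overlapped in both strains, but every one of the 16 ethanol libraries of each strain lay above the mean log2 level of that strain's saline libraries. In DBA/2J ethanol raised Zfp867 by 0.44 on the log2 scale (SE 0.09, adjusted p = 0.0047 by edgeR), where 0.295% of all genes tested were called and 0.135% were called higher. This was 1 of 70 members (1.43%). In C57BL/6J the difference was 0.38 (SE 0.09, adjusted p = 0.059 by edgeR), with 0 members called and 0.0901% of all genes tested called. There 3 members had an unadjusted p under 0.05, as did 842 of the 19974 genes tested, and in DBA/2J 9 members and 1669 genes. In C57BL/6J Zfp867 was called by DESeq2 (adjusted p = 0.014), which called 21 genes in all, and by edgeR with that strain fitted alone (adjusted p = 0.016). With DBA/2J fitted alone its call there was lost (adjusted p = 0.068 by edgeR).

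Zfp867 was also called lower in DBA/2J over both drugs (log2 difference -0.17, SE 0.06, adjusted p = 0.016 by edgeR), but not in males alone (-0.08), the round with the lower numbers (-0.13), the saline noFC libraries alone (-0.16) or with libraries summed by title number (-0.17). The ethanol effect on Zfp867 did not differ detectably between strains, with a difference of 0.06 (SE 0.12, adjusted p = 1.0 by edgeR), nor between FC and noFC (0.09, SE 0.12, adjusted p = 1.0). By conditioning, the mean in C57BL/6J went from 4.09 ± 0.587 CPM (SD, n = 8) after saline to 5.20 ± 0.703 (SD, n = 8) after ethanol in noFC, and from 3.87 ± 0.653 (SD, n = 7) to 5.07 ± 0.570 (SD, n = 8) in FC. In DBA/2J it went from 3.67 ± 0.877 to 4.73 ± 0.885 CPM in noFC and from 3.22 ± 0.635 to 4.55 ± 0.628 in FC (SD, n = 8 each). Males and females each had a higher mean after ethanol in every one of these pairs. In the round of titles with the lower numbers the difference was 0.36 in C57BL/6J and 0.38 in DBA/2J and in the round with the higher numbers 0.38 and 0.51. Within a round drug coincides with the letter in the title and cannot be told apart from it, but the letters are exchanged between the rounds. Neither round alone gave a call.

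**Figure D5:**
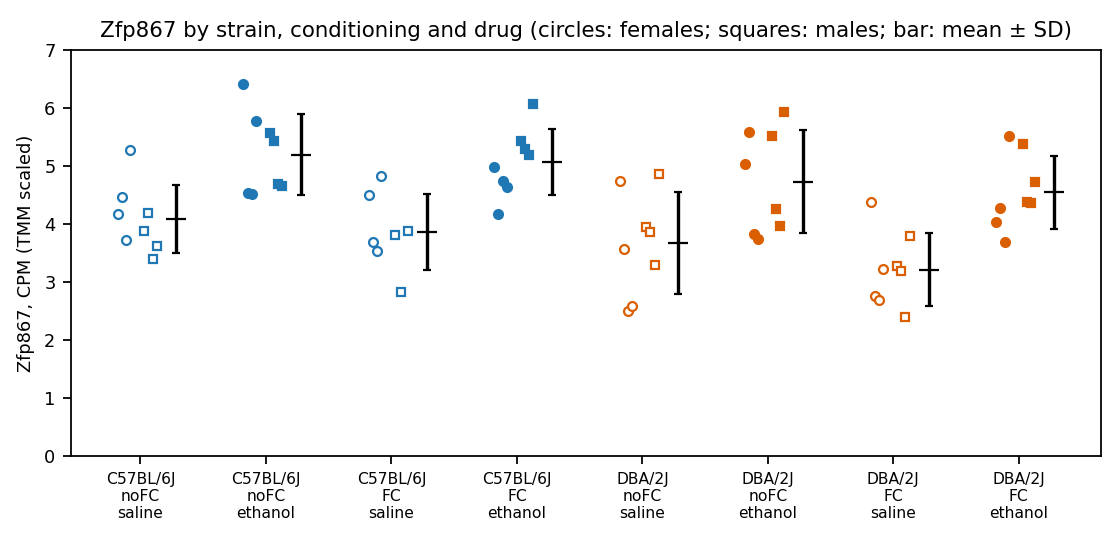
CPM of Zfp867 by strain, conditioning and drug, 1 point per library (circles females, squares males, filled points ethanol) with the mean and SD of each group of 7 or 8. Each of the 4 ethanol groups had a higher mean than its saline counterpart, and single libraries overlapped.

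The 3 genes whose log2 level followed that of Zfp867 most closely over the 63 libraries were Zfp280c (r = 0.63), Fam214a (r = 0.63) and Guf1 (r = 0.62). Within C57BL/6J the same correlations were 0.55, 0.44 and 0.61, and within DBA/2J 0.62, 0.68 and 0.64. They describe libraries that share treatment, strain and depth.

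Other members showed no called ethanol difference, and the smallest p-values went with small or imprecise values. In DBA/2J, Zfp873 ran from 6.77 to 8.73 CPM (median 7.76) after saline and from 5.52 to 8.53 CPM (median 6.54) after ethanol (log2 difference -0.18, SE 0.05, adjusted p = 0.17 by edgeR). In C57BL/6J its difference was 0.05 (SE 0.06). Zfp973, near the level limit, had a difference of -0.50 (SE 0.16, adjusted p = 0.21 by edgeR) in DBA/2J. In C57BL/6J, Zfp811 and Zfp808 had 0.12 (SE 0.05) and 0.25 (SE 0.12), each with an adjusted p of 1.0. Over the 70 members the median ethanol difference was 0.02 in C57BL/6J and -0.005 in DBA/2J, and the median SE was 0.055 and 0.053. A change of a few percent in one member was thus not detectable, and larger ones could go uncalled. Zfp867 at 0.38 in C57BL/6J and Zfp873 at -0.18 in DBA/2J were not called. No gene of the silencing machinery was called for ethanol in either strain.

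The third comparison asked what fear conditioning changed. No member was called by edgeR in either strain, and neither was any gene of the table (0.0% in both). In C57BL/6J 0 members and in DBA/2J 3 members had an unadjusted p under 0.05, as did 786 and 670 of all genes tested. DESeq2 called no member in either strain, and 6 genes of the table in C57BL/6J. The smallest p-values in DBA/2J belonged to Zfp869 (log2 difference FC minus noFC 0.08, SE 0.03), Zfp974 (0.10, SE 0.04) and Zfp946 (0.11, SE 0.05), each with an adjusted p of 1.0. In C57BL/6J they belonged to Zfp992 (0.34, SE 0.19), Zfp869 (0.05, SE 0.03) and Zfp879 (-0.13, SE 0.07). The median difference over the members was 0.01 in C57BL/6J and 0.03 in DBA/2J, beside 0.001 over all genes tested in each. In DBA/2J 50 of the 70 members had a positive value, as did 10149 of the 19974 genes tested. The difference between these shares was not tested. Conditioning coincides with the letter of the title in both rounds, so they cannot be told apart.

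No member was called for sex (0.2% of all genes tested were), for the difference of the ethanol effect between strains (0.01% of all genes), or for the differences of the conditioning effect between strains, of the ethanol effect between FC and noFC, and of the strain effect between sexes (0.0% of all genes each). Of the 37 members called between strains, 36 had one sign of the difference in all 4 combinations of drug and conditioning, and Zfp811 was the exception, at 0.03 in saline FC. Of the 33 not called, 9 had one sign in all 4. The strain difference that was tested is the average over these same combinations. One sign among called members thus follows in part from the call, and both counts are descriptions.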

How the data were processed

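The authors deposited a table of raw gene counts (features and lengths of GENCODE M21) and a second table, with estimated counts for each transcript, for the 63 libraries. Per the submitters' processing notes, the tools were featureCounts, HISAT2, Salmon, fastp and DESeq2 and the build was GRCm38, with versions and settings not given in the sources used here. Per the labels' protocols, libraries were stranded mRNA libraries read with 75-base single reads. Members and gene lists were chosen with earlier results of these data known. Genes were filtered with filterByExpr (minimum count 10), which left 19974 genes, scaled with TMM and fitted in edgeR 4.0.16 (R 4.3.3) with 1 coefficient for each of 16 groups. Quasi-likelihood tests of averaged contrasts were adjusted by Benjamini-Hochberg over all genes tested, at an adjusted p of 0.05. Estimated counts were rounded and summed by gene as a second counting. The fit was tested on simulated data.

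Genes were named by a rule on smallest p, largest difference, level, cluster and a short list of known genes. Alternatives were DESeq2 1.42.0, other scaling factors, no filter, the transcript sums, a choroid plexus covariate, either round of titles, either sex, subsets of libraries and each library left out. Windows of 75 bases, fingers and the KRAB-like pattern were read from the M21 transcripts, and promoter windows from RefSeq (GRCm38.p6).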

Additional observations from a re-analysis of the deposited data

Results flagged for a closer look

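In 3 groups of C57BL/6J libraries, 1 library stood apart from the others in Zfp970, by the gap between the extreme library and its neighbour set against the range of the group. After saline without conditioning the lowest of 8 libraries was at 5.604 CPM beside a median of 7.27. After saline with conditioning the highest of 7 was at 10.324 CPM beside a median of 6.82, and after ethanol with conditioning the highest of 8 was at 8.231 CPM beside a median of 6.53. In all 63 groups of 4 to 8 libraries in 6 members were screened, and the limit used flags about 1 in 20 groups by chance. All 3 libraries lay far above the DBA/2J libraries, which reached 0.263 CPM.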

How the results depend on the processing

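The members called higher in DBA/2J numbered 14 and those called lower 23. With the saline noFC libraries alone these counts were 9 and 13, and without the members under 90% unique windows 9 of 50 were higher; both settings hold fewer libraries or members. Leaving out each library in turn gave 14 to 17 higher and 22 to 27 lower. Of 1061 values of members under the other alternatives, 937 kept their direction and their side of the threshold, 57 lost the call, 17 gained it, 46 without a call changed sign and 4 with a call reversed. The 4 were Zfp947 (-0.259), Zfp951 (-0.583) and Zfp991 (0.158) in the transcript sums and Zfp882 (0.017) in females alone.

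The ethanol call of Zfp867 in C57BL/6J depended on the fit, and the cause was not tested. It was called, as the 1 member, with the choroid plexus covariate (adjusted p = 0.046 by edgeR), with its own strain fitted alone (adjusted p = 0.016 by edgeR) and by DESeq2 (adjusted p = 0.014). Leaving out a library gave 0 to 1 members there. The call appeared without 8 of the 63 libraries, with adjusted p from 0.029 to 0.049 by edgeR. Their titles were B6_F_noFC_EtOH_319_B, B6_F_FC_SAL_323_C, B6_F_noFC_SAL_323_D, DBA_F_FC_SAL_313_A, DBA_F_noFC_SAL_313_B, DBA_F_noFC_SAL_321_D, DBA_F_noFC_SAL_325_D and DBA_M_FC_SAL_320_C. In DBA/2J 0 members were called in the first round (adjusted p = 0.10 by edgeR), the second round (adjusted p = 0.19 by edgeR) or with the strain fitted alone (adjusted p = 0.068 by edgeR), and 1 without any single library. The log2 difference of Zfp867 stayed between 0.38 and 0.51 in DBA/2J. Ethanol calls over all genes in DBA/2J numbered 59, and 97 by DESeq2, 33 with no filter and 27 with the strain fitted alone.

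The title number as a replicate block gave 1 member called for ethanol in each strain, Zfp867, with adjusted p = 0.0045 in C57BL/6J and 0.00014 in DBA/2J by edgeR, and 109 calls over all genes in DBA/2J. What the number marks is not given in the labels. Deviations of 93 pairs of libraries with one number correlated with a median of 0.04 (-0.523 to 0.48), beside -0.01 for libraries of other numbers. Of the 93 pairs 32 were above 0.1, and since not every pair was, the numbers were not taken as pairs. As a hint from the data, 27 of 63 libraries correlated best with one of their own number, which held at most 3 of the 12 libraries compared. Depth limits the members near 1 CPM, where 1 library holds few counts. Transcript sums of Zfp869 and Zfp935 were near 0 and could not be fitted for strain. Robust estimates of the spread, added after seeing the data, changed no count by more than 1.5 times.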

Other observations

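Zfp941, a KRAB zinc finger gene, varied most between libraries of one strain among the 54 members at 3 CPM or more in each strain. Its coefficient of variation within strains was 25.9%, beside a median of 9.6% and a lowest value of 5.5% for Zfp866. Its log2 level followed that of Gap43, a growth cone protein gene, with r = 0.86 over the 63 libraries (0.91 within C57BL/6J and 0.81 within DBA/2J), of Dpp10 with r = 0.79 and of Gabra3 with r = 0.79. These are descriptions of libraries that share tissue composition and depth, and Zfp941 was singled out after its values were seen.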
